A study of Drosophila melanogaster with 2 samples.

Results

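The genes described here are the 7 core genes of the Drosophila melanogaster Hedgehog pathway, hh, ptc, smo, cos, fu, Su(fu) and ci, among 13945 protein-coding genes annotated on the 6 major chromosome arms (Ensembl release 115). They were chosen by name as pathway genes, after an earlier look at these peak lists had shown a strong peak at ci, so the peak at ci is given as a description and not as a finding. The libraries came from chromatin immunoprecipitation followed by sequencing (ChIP-seq) of the zinc finger protein Sry-beta in whole embryos of mixed sex aged 0 to 12 h. The line stably carries a transgene in which GFP is fused to the C-terminal end of Sry-beta; the promoter driving it and the state of the endogenous gene are not given in the labels. There was 1 group with 2 biological replicates, numbered 2 and 4, and no other strain or condition. All values are therefore positions, ranks and counts set beside the same over all protein-coding genes, without tests. Embryos from across these 12 h were taken whole, so a peak cannot be assigned to a tissue or to a stage among them.

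Hedgehog (Hh) is a secreted, lipid-modified protein that patterns embryonic segments and imaginal discs. In its absence the receptor Patched (Ptc) keeps the membrane protein Smoothened (Smo) inactive, and the transcription factor Cubitus interruptus (Ci) is held by a complex of the kinesin-like scaffold Costa (Cos), the kinase Fused (Fu) and Suppressor of fused, and is cut to a repressor. When Hh binds Ptc, Smo is released, cutting of Ci stops, and full-length Ci activates targets that include ptc itself.

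The sequences printed are those under the peaks the results turn on, from the release 6 genome assembly (dm6). They were picked for the ci promoter, the strongest peak near smo, the promoter summits of smo and fu that ranked below the IDR list of reproducible peaks, and the distal hh peak. Capitals mark the 5 bases centred on a summit, except in the hh upstream line, which also has in capitals the 9 letters of a Ci binding site, and in the last lines, where capitals mark motif letters only. Each is written 5′ to 3′ on the strand given; the ci and hh lines follow the strand of the gene.
ci promoter, higher summit, chr4:56618-56646 (−): ccgaggacaaaaATTACccactgagagac
ci promoter, lower summit, chr4:56843-56871 (−): agataaatacgaCTACAaatacatgtttg
mbm and CG11555 promoter, upstream of smo, chr2L:273734-273834 (+): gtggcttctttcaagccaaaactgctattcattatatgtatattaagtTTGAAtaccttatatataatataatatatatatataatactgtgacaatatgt
smo promoter, relaxed summit, chr2L:277414-277442 (+): cttattttatgtTGATGttatcttatgtt
fu promoter, relaxed summit, chrX:18657517-18657617 (+): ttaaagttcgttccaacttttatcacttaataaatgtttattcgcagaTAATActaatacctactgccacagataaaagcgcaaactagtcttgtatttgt
hh upstream peak with Ci site letters, chr3R:23149122-23149252 (−): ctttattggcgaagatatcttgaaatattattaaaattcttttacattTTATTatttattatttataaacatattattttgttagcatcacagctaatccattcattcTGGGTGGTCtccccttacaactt
smo promoter, DRE and Motif 1 letters, chr2L:277273-277301 (+): tTATCGATActccgcacccAGTGTGACCg
smo 5′ region, Ci site letters, chr2L:277951-277979 (+): cttatgcctgTGGGTGGTCgcagacgcat

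The authors deposited an IDR list, of 3257 peaks kept by a test of the irreproducible discovery rate between libraries, and 3 relaxed lists of 30000 peaks each, for the pooled libraries and for each replicate. A relaxed list is a fixed number of peaks and holds background as well as binding. The authors' signal value, whose scale is not stated, ran down to 169 in the IDR list, with a median of 292, and to 36.3 in the pooled list, with a median of 57.7. The IDR peaks were exactly the 3257 highest peaks of the pooled list, with the same summits and signals, so 1 rank serves both. A replicate was counted as holding a peak when it had a summit within 100 bp. The depth is unknown, since no read counts were among these files, and signals are not compared between lists.

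A promoter summit, meaning one at most 500 bp from a transcription start site (TSS), was in the IDR list for 1 of 7 genes, ci, against 18.1% of all protein-coding genes. An IDR summit lay in an intron of 1 of 7 genes, ptc, against 6.15% of all genes. With 10 kb on either side of the gene, 4 of 7 had an IDR summit, namely hh, ptc, smo and ci, against 52.9%. In the pooled relaxed list, 5 of 7 had a promoter summit (hh, ptc, smo, fu and ci), against 53.2%, and 4 of 7 an intronic one (hh, ptc, smo and ci), against 24.3%. The counts for promoters and for the 10 kb windows are thus near the share of all genes and are no result about the members. The members are longer than most genes, with a median length of 4940 bp against 2166 bp over all protein-coding genes, which widens the windows searched. Intron length was not matched, so the intronic counts too are a description only.

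**Figure D1:**
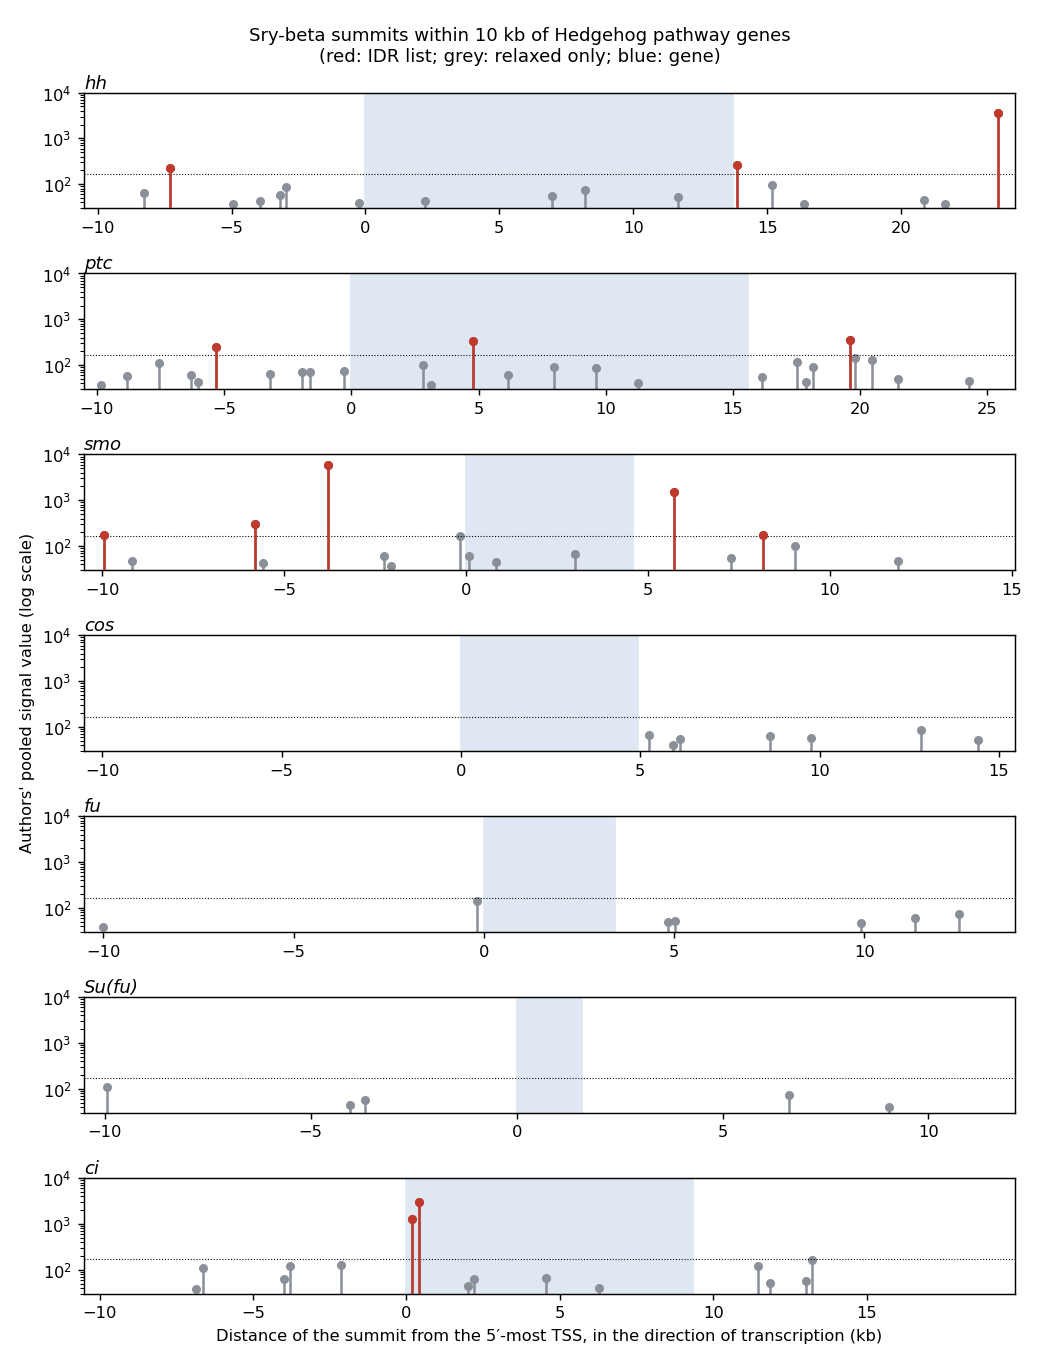
Summits within 10 kb of each gene, placed by distance in kb from the gene's 5′-most TSS in the direction of transcription, against the authors' pooled signal value on a log scale. Red points are IDR peaks, grey points are in the relaxed list only, the blue band is the gene and the dotted line is the lowest IDR signal of 169. Both ci summits lie at its start, 3 red summits near ptc lie away from its promoter, and cos, fu and Su(fu) have grey summits only.

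The ci gene (FBgn0004859), which encodes the transcription factor at the end of the pathway, lies on chromosome 4 from 47710 to 57041 on the minus strand and has TSSs at 56331 and 57041. A single IDR interval, chr4:56227-57216, covered both TSSs and was listed with 2 summits. The higher summit, at 56632, had a pooled signal of 3074 and rank 219. In replicate 2 it had a signal of 857 and rank 235, and in replicate 4 a signal of 2278 and rank 214. All 3 lists thus ranked it much alike. The lower summit, at 56857, had a signal of 1301 and rank 444, with rank 943 in replicate 2 and rank 383 in replicate 4. The lists placed this summit less alike than the first.

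The higher ci summit lay 301 bp upstream of the inner TSS and inside the noncoding first exon of the longer transcript, in its 5′ UTR. The lower one lay 184 bp inside the outer TSS, in the same exon. Both also lay within the antisense RNA gene asRNA:CR43957, and peaks carry no strand, so they belong to either. Of the 25 IDR peaks on the fourth chromosome, whose median signal was 228, the ci summits were in places 1 and 3. Over the genome, 299 protein-coding genes (2.14%) had a higher promoter signal than ci. In the relaxed list ci had 15 summits within 10 kb. Among those below the IDR list the highest was 50 bp upstream of PlexB, a plexin receptor gene beyond the 3′ end of ci, with a signal of 162 and rank 3444. Upstream of ci a summit at 59161 had rank 4755 and one at 60833 rank 5115.

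The hh gene (FBgn0004644), which encodes the ligand, lies on 3R from 23128169 to 23141906 on the minus strand. No IDR summit lay at its TSS, and the relaxed summit nearest it, 238 bp away, was among the weakest listed, with a pooled signal of 38.9 and rank 27225. The replicates ranked their own highest promoter summit of hh 24523 (signal 19.3, replicate 2) and 14205 (signal 39.8, replicate 4). Over all protein-coding genes 51.5% had a higher promoter signal than hh.

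There were 3 IDR summits within 10 kb of hh, and 2 of them were at promoters of neighbouring genes. The summit 142 bp past the 3′ end of hh was 46 bp upstream of CG31457, with a signal of 263 and rank 1846; it ranked 941 in replicate 2 and 3725 in replicate 4. The highest summit, 9889 bp from the gene, was 120 bp upstream of CenB1A, which encodes a GTPase-activating protein for Arf, with a signal of 3509 and rank 196. It ranked 420 in replicate 2, while the nearest summit of replicate 4 was 161 bp away, in an overlapping peak of rank 75. Its interval held a further, higher IDR summit just over 10 kb from hh. The remaining summit was not at any TSS: it lay 7296 bp upstream of hh, within chr3R:23148957-23149446, with a signal of 229 and rank 2178. It ranked 6133 in replicate 2 (signal 46.2) and 1637 in replicate 4 (signal 197), so replicate 2 alone would not have put it among its first 3257 peaks. Its 101 bp window had a GC content of 19.8%, against a median of 35.6% over all IDR windows, and an unbroken run of 24 A or T bases. Runs of 20 or more were in 5.28% of IDR windows and 2.91% of pooled relaxed windows.

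The ptc gene (FBgn0003892), which encodes the Hh receptor and is itself a target of the pathway, lies on 2R from 8649649 to 8665223 on the plus strand. Its promoter had a relaxed summit 284 bp upstream of the TSS with a pooled signal of 73.1 and rank 10354. In replicate 4 this summit had a signal of 70.4 and rank 5986. Replicate 2 did not hold it, the nearest summit there being 150 bp away. The highest ptc promoter summit of replicate 2 had a signal of 36.4 and rank 8772. All 3 ranks are far below the IDR list. The IDR peaks near ptc were distal instead. A summit in the first intron, 4784 bp downstream of the TSS, had a signal of 335 and rank 1368; it ranked 958 in replicate 2 (signal 173) and 1841 in replicate 4 (signal 176). A summit 5301 bp upstream had a signal of 243 and rank 2053, with rank 1625 in replicate 2 and rank 2259 in replicate 4. Both were thus among the first 3257 peaks of each replicate, unlike the distal hh peak. The last, 4016 bp past the 3′ end, lay within Acsl, an acyl-CoA synthetase gene, with a signal of 349 and rank 1300. It ranked 2666 in replicate 2 and 1333 in replicate 4.

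The surroundings of ptc were the richest of the 7 in relaxed summits. The ptc window held 26, or 7.31 per 10 kb, against 2.09 per 10 kb over the arm, and 1.82% of all protein-coding genes had a denser window. For smo the density was 6.51 per 10 kb, with 4.26% of genes denser, for ci 5.11 with 13.4% and for hh 5.04 with 14%. The windows of fu (2.99), cos (2.81) and Su(fu) (2.32) were near the median of all genes, 2.69 per 10 kb. In all, 93 distinct relaxed summits lay within 10 kb of a member, of which 7 were at a member's own promoter, 14 in its introns and 3 in its exons, with 31 upstream and 38 downstream. Only 32 of the 93 had a summit in both replicates, against 12 of the 13 IDR summits. Those 13 are among the 93. They come from a list that was itself chosen for reproducibility and that is also the 3257 highest pooled peaks. Why the shares differ was not tested.

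The smo gene (FBgn0003444), which encodes the transducer Smo, lies on 2L from 277582 to 282167 on the plus strand. Its own promoter fell just below the IDR list: the summit 154 bp upstream of the TSS had a pooled signal of 162 and rank 3449, while the list ended at rank 3257. By the distance set above for holding a peak, neither replicate held this summit. The nearest summit was 122 bp from it in replicate 2 and 109 bp from it in replicate 4. The replicates also differed in the rank of their own highest promoter summit. In replicate 2 the highest smo promoter summit had a signal of 40.1 and rank 7534, and in replicate 4 a signal of 148 and rank 2263. Over all protein-coding genes 19.0% had a higher promoter signal in the pooled list. The smo TSS and a TSS of CG17078, on the opposite strand, are 370 bp apart, and the summit lies within CG17078, so it cannot be assigned to smo alone.

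There were 5 IDR summits within 10 kb of smo, more than for any other member, and all 5 were at promoters of neighbours. The strongest peak near any member, 3798 bp upstream of smo, lay between the divergent genes mbm, which encodes a nucleolar protein of neural stem cells, and CG11555. It had a pooled signal of 5815 and rank 65, with a signal of 1758 and rank 60 in replicate 2 and a signal of 4158 and rank 66 in replicate 4. Its window held an unbroken run of 30 A or T bases; runs of 25 or more were in 2.06% of IDR windows and 1.06% of pooled relaxed windows. The summit 24 bp upstream of CG11601, 1126 bp past the 3′ end of smo, had a signal of 1531 and rank 396, and ranked 353 in replicate 2 and 411 in replicate 4. The others were weaker: the summit at Dus1 had rank 1580, that at CG17075 rank 3050 and that at CG3625 rank 3073. The last ranked 1713 in replicate 2 and 5092 in replicate 4.

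The choice of 10 kb decides some of these neighbours. Among IDR summits, just inside the limit lay the CG17075 summit, 9958 bp from smo, and the CenB1A summit, 9889 bp from hh. Just outside lay a summit at Rassf, 10090 bp from hh, with a signal of 5320 and rank 83, and a summit at the ribosomal protein gene RpS3A, 10188 bp from ci, with a signal of 359 and rank 1269. The Rassf and CenB1A summits shared 1 IDR interval, chr3R:23117692-23118653, so the limit divides that peak. The summit of rank 83 was also the highest within 500 bp of a CenB1A TSS.

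The genes of the cytoplasmic complex that holds Ci had no IDR summit within 10 kb. For fu (FBgn0001079, X from 18657755 to 18661204, plus strand), the kinase gene, the relaxed summit 188 bp upstream of the TSS had a pooled signal of 141 and rank 4154. It was also the highest promoter summit of CG6659, which starts head to head with fu, so it cannot be assigned to fu alone. The highest fu promoter summit of replicate 2 had a signal of 29.2 and rank 12396, and that of replicate 4 a signal of 103 and rank 3582. As at smo, replicate 4 ranked the fu promoter far above replicate 2. For cos (FBgn0000352, 2R from 7382176 to 7387115, minus strand), the scaffold gene, no pooled summit lay at the promoter; replicate 2 alone had one, with a signal of 31.4 and rank 11079, and replicate 4 had none. All 7 pooled summits within 10 kb of cos lay beyond its 3′ end, within the adhesion molecule gene Dscam1, and the highest had rank 8169. For Su(fu) (FBgn0005355, 3R from 12689873 to 12691468, minus strand), which encodes a negative regulator that binds Ci, no list had a promoter summit. Its highest summit within 10 kb, 9955 bp upstream and within Past1, an endocytic protein gene, had rank 5773.

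These 3 genes were also the farthest from the reproducible peaks. The nearest IDR summit was 117241 bp from the fu TSS, 62664 bp from that of Su(fu) and 31955 bp from that of cos, against a median of 10507 bp over all protein-coding genes. Of all genes, 96.9% had a nearer IDR summit than fu, 89.4% than Su(fu) and 76.8% than cos. For ci the figure was 12.9%, for smo 30.6%, for ptc 34.3% and for hh 42.4%.

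**Figure D2:**
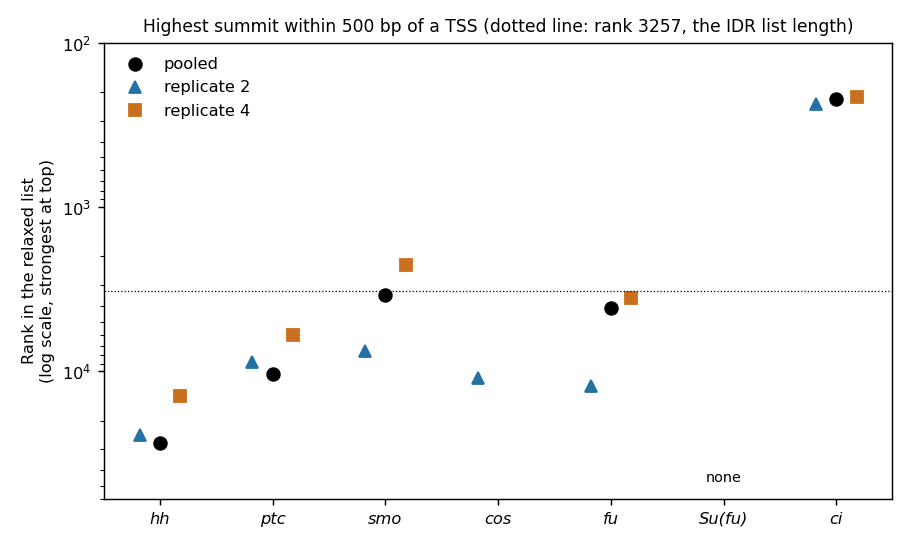
Rank of the highest summit within 500 bp of a TSS of each gene in the pooled list (circles) and in the lists of replicate 2 (triangles) and replicate 4 (squares), on a log scale with the strongest ranks at the top; the dotted line is rank 3257, the length of the IDR list. The ci marks lie together near rank 219, those of smo and fu straddle or approach the line in replicate 4 and lie well below it in replicate 2, cos has a replicate 2 mark only and Su(fu) has none.

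Of the members, 4 share a promoter region with a head-to-head gene on the opposite strand within 1000 bp. The partner was Dhx15, an RNA helicase gene, 72 bp from cos, Arp1, a dynactin subunit gene, 275 bp from Su(fu), CG17078 for smo and CG6659, 469 bp from fu. None of these 4 members had an IDR promoter summit, against 34.4% of 5052 genes with such a partner, and 2 of the 4 (smo and fu) had a relaxed one, against 76.9%. The other 3 members, hh, ptc and ci, have no such partner, and of them ci had an IDR promoter summit. Among all 8893 genes without a partner 8.79% had one. The ci peak was known before the members were chosen, so its place beside this share is a description only. Of the 32 neighbouring or overlapping genes of the members, 8 (25%) had an IDR promoter summit, near the 18.1% of all protein-coding genes.

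The sequence at the members' summits was searched for 6 motifs. The 6 motifs, each searched on both strands within 50 bp of the summit, were AGAGATG, the core shared by the Sry-beta and Sry-delta consensus sequences, the DNA replication-related element (DRE) TATCGATA, Motif 1 GGTCACACT, the word TAGCTA, the GAGA element GAGAGAG and the Ci site TGGGTGGTC. At the 13 IDR summits near members 1 window held any of them, that at Dus1 upstream of smo, with a DRE. The share of all IDR windows with any of the 6 was not counted, so this count is a description only. Over all IDR windows AGAGATG was in 3.19%, the DRE in 3.32%, Motif 1 in 1.5%, TAGCTA in 7.95% and GAGAGAG in 1.29%, and in the pooled relaxed windows the shares were 1.68%, 1.27%, 0.777%, 2.35% and 2.01%. None of the 6 motifs was at either ci summit, whose windows had a GC content of 32.7% each. These letters being absent from the windows says nothing of how the protein came to be there.

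In the wider promoter, 500 bp on either side of a TSS, smo held a DRE 308 bp upstream, a Motif 1 match 290 bp upstream and a Ci site 379 bp downstream, all in the lines printed above. The DRE and Motif 1 letters are farther upstream than the relaxed smo summit. They lie between the smo TSS and the CG17078 TSS 370 bp from it, and nearer to the latter. The Ci site lies inside both smo and CG17078, whose outer start, on the opposite strand, is at 278234. Like the summit, none of these letters can be assigned to smo alone. A Motif 1 match was also in the fu promoter, and that of ptc held 1 AGAGATG and 5 overlapping GAGAGAG matches, while hh, cos, Su(fu) and ci held none of the 6. Of all protein-coding promoters 12.6% held AGAGATG, 13.0% a DRE, 8.61% Motif 1, 19.7% TAGCTA, 15.7% GAGAGAG and 0.731% the Ci site.

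Exact Ci site letters were looked for within 10 kb of the members, since Ci binds such sites at ptc and other targets. There were 8, in 3 of the 7 members, against 18.2% of all protein-coding genes with at least 1. The ptc window held 5 of them, and 12 genes in all (0.0861%) held 5 or more. Of the ptc sites, 3 lay between 635 and 758 bp upstream of the TSS, and the nearest pooled summit, of rank 10354, was 351 to 474 bp from them. Another, 5130 bp upstream, was 171 bp from the upstream IDR summit of ptc. At hh the site 7230 bp upstream was 66 bp from the distal IDR summit and is printed with it. On all arms 1205 such sites were found and 6 (0.498%) lay within 200 bp of an IDR summit, a distance chosen after the values were seen; positions within 200 bp of an IDR summit made up 0.921% of the arms. The sites at ptc and hh were thus 2 of those 6, while no IDR window of 101 bp held the letters, against 0.0433% of pooled relaxed windows. A match is a run of letters and was not measured as a site bound by Ci in these embryos.

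Promoter peaks were counted in the same way at the other genes of the pathway. In 5 lists written from general knowledge, 44 genes were matched, of which 20 (45.5%) had an IDR promoter summit and 35 (79.5%) a relaxed one, against 18.1% and 53.2% of all protein-coding genes. By role, 20 of 34 regulators (58.8%) and 0 of 10 targets had an IDR promoter summit. No target has a head-to-head partner, so the share to set beside the 0 of 10 is the 8.79% of all genes without a partner, and the count is near it. Regulators with a head-to-head partner had an IDR summit in 13 of 19 cases (68.4%), and those without in 7 of 15 (46.7%), against 34.4% and 8.79% of all such genes. In the 1628 highest peaks of the IDR list the count was 14 of 34 regulators (41.2%), against 10.3% of all genes. No test was made of these shares, and the lists were written with results of these data known.

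**Figure D3:**
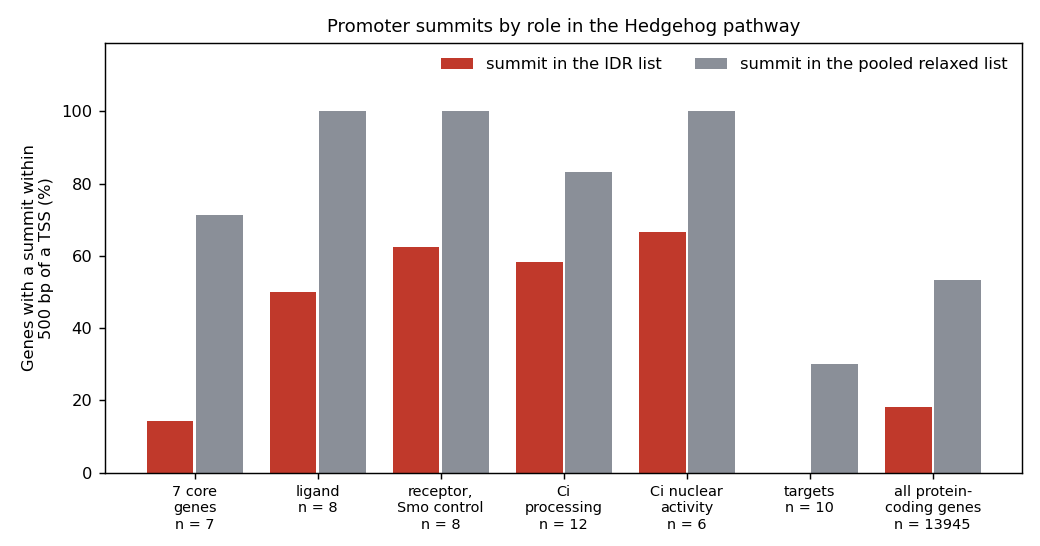
Share of genes, in percent, with a summit within 500 bp of a TSS in the IDR list (red) and in the pooled relaxed list (grey), for the 7 core genes, 5 lists of other pathway genes and all 13945 protein-coding genes. The 4 lists of regulators have IDR shares from 4 of 8 genes to 4 of 6, the targets 0 of 10, and all genes 18.1%.

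Among genes for release, modification and spread of Hh, 4 of 8 had an IDR promoter summit. The summit of disp, whose product releases lipid-modified Hh from the cell, was 133 bp upstream of its TSS with a signal of 5937 and rank 62, and it ranked 90 in replicate 2 and 52 in replicate 4. ECSIT starts head to head with disp, so this summit cannot be assigned to disp alone. That of shf, which encodes a secreted factor for Hh spread, had a signal of 1949 and rank 322, with rank 360 in replicate 2 and rank 319 in replicate 4. The glypican gene dlp had a summit of rank 1581, with RecQ5 the nearest TSS, and another of rank 2351, 114 bp upstream of its own TSS, and ttv, which encodes a heparan sulfate polymerase, rank 2515. The glypican gene dally had no IDR promoter summit but 3 intronic IDR summits, the highest of rank 377, with a signal of 1644.

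Among co-receptors and genes for trafficking and phosphorylation of Smo, 5 of 8 had one. Gprk2, a kinase gene for Smo, had a signal of 4820 and rank 108, with rank 95 in replicate 2 and rank 106 in replicate 4; PNPase starts head to head with it. The casein kinase gene dco had a signal of 4115 and rank 150, with ranks of 120 in replicate 2 and 155 in replicate 4. Usp8, a deubiquitinase gene, had a signal of 3758 and rank 176, but the nearest TSS to that summit was that of Trm7-34. The co-receptor gene ihog had a signal of 490 and rank 903, with its summit 1 bp from the TSS, and Herc4, a ubiquitin ligase gene, had rank 1508, nearest to sturkopf. The second co-receptor gene, boi, had a relaxed summit of rank 14877.

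Among genes for processing and degradation of Ci, 7 of 12 had one, most of them low in the list. The highest was wdb, which encodes a phosphatase subunit and starts head to head with pins, with a signal of 1714 and rank 366. It was followed by the kinase gene sgg with rank 1259, SkpA with rank 1620, the phosphatase gene mts with rank 1953, slmb, which encodes the F-box protein that recognises phosphorylated Ci, with rank 2571, Cul1 with rank 2858 and the protein kinase A gene Pka-C1 with rank 2899. SkpA and Cul1 encode further subunits of the ubiquitin ligase of slmb. All 3 have a head-to-head partner, Cul1 and slmb were not among the 1628 highest IDR peaks, and Cul1 ranked 5188 in replicate 2. The mts summit was 417 bp upstream of its TSS and 13 bp inside that of Rack1, so it was the nearer to Rack1. Pka-C1 also has a head-to-head partner, hoip.

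Among genes for nuclear activity of Ci and feedback, 4 of 6 had one. The strongest of all 44 genes was rdx, which encodes the adaptor that directs full-length Ci to Cul3: its summit, 121 bp upstream of a TSS, had a signal of 5980 and rank 60, with rank 136 in replicate 2 and rank 45 in replicate 4. It too has a head-to-head partner, CG3061. The co-activator gene nej had a signal of 4720 and rank 110, with ranks of 66 and 122 in replicates 2 and 4. The importin gene Kap-alpha3, which starts head to head with Son, had a signal of 1849 and rank 340, and Sumo had rank 1950. The 20 genes with an IDR promoter summit had a median rank of 1081, against 1420 over all 2518 protein-coding genes with one.

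**Figure D4:**
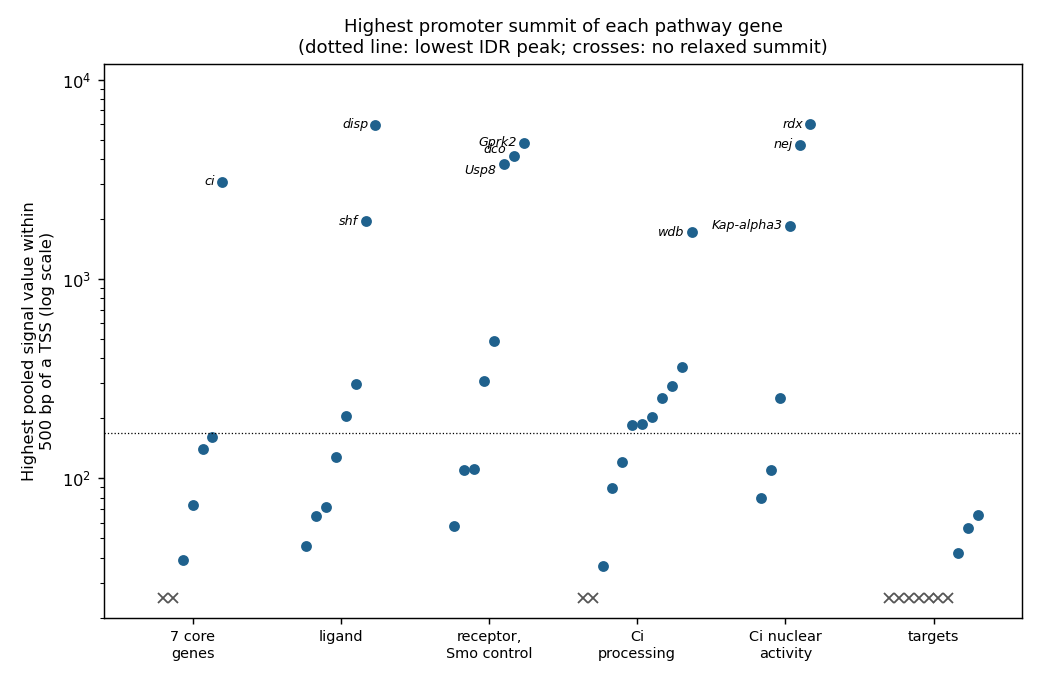
Highest pooled signal value within 500 bp of a TSS, on a log scale, for each of the 7 core genes and the 44 other pathway genes by role; crosses are genes with no relaxed promoter summit and the dotted line is the lowest IDR signal of 169. Among the core genes only ci, with 3074, is above the line, while rdx (5980), disp (5937) and Gprk2 (4820) lead the regulators and every target is below it.

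The target list had no IDR promoter summit, and its relaxed ones ranked low in the pooled list. In that list hry (rank 12216), inv (rank 15466) and dpp (rank 24252) had a relaxed promoter summit. The targets en, wg, kn, eya, ato, dac and bab1 had none in the pooled list. The share of genes without a head-to-head partner that had a relaxed promoter summit was not counted. The 53.2% of all protein-coding genes also covers genes with a partner, of which 76.9% had such a summit. The number of targets with a relaxed promoter summit is therefore a description only. The hry promoter summit ranked 3534 in replicate 2 (signal 67.7) and 27772 in replicate 4 (signal 25.6), so its place rests on the library. IDR summits within 10 kb of targets lay elsewhere. The retinal determination gene dac had an intronic summit of rank 2660 and another of rank 2840 that lay 515 bp upstream of a TSS, just outside the promoter window, the selector gene inv a summit 3364 bp upstream of rank 2600, and bab1, a gene for limb and abdomen patterning, intronic summits of ranks 1670, 2057 and 2409. Those near kn, a transcription factor gene also called collier, lay at the promoter of BEAF-32. In all, 4 of 10 targets had an IDR summit within 10 kb, against 52.9% of all protein-coding genes.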

How the data were processed

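Peaks were mapped in ChIP-seq libraries of GFP-tagged Sry-beta from whole embryos. The labels' free text calls both libraries an input control, while assay title, antibody and lists are those of ChIP, and they were treated as ChIP. The authors deposited 4 narrowPeak lists (dm6). A relaxed list was made from its own alignment with a shared control, and the IDR list by comparing relaxed lists, per the deposited readme files. Aligner, caller and IDR cutoff: not given in the sources used here. The signal of each peak is the authors' deposited value, of unstated scale, and served only for ranks and comparisons inside 1 list. The −log10 q deposited by the authors was 3.84 for each IDR peak, so it ranked nothing. The commonest width, 490 bp in the pooled list, reflects no measured extent, and 305 IDR peaks shared an interval with another summit.

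Positions were counted with Python 3.11.15, numpy 2.4.6 and pandas 2.3.3, drawn with matplotlib 3.10.9, and tested on simulated data. The annotation was Ensembl release 115 and the genome the release 6 assembly. A promoter summit lay within 500 bp of any TSS, and summits recorded past a peak's end were moved to its last base. Of 44 pathway genes 2 were matched by synonym. The members, gene lists and motifs were chosen with earlier results of these data known. Named genes were the members, the genes nearest to IDR summits and to the 5 highest relaxed summits within 10 kb of a member, neighbours, and pathway genes with an IDR promoter summit; targets, dally, boi and head-to-head partners of pathway genes were named after their values were seen, as were Rassf, BEAF-32 and the genes of the closing observations. Depth is unknown, so no interval is given. Alternatives covered windows, list length and each replicate alone.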

Additional observations from a re-analysis of the deposited data

How the results depend on the processing

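The number of members with an IDR promoter summit was 1 to 2 when the 3257 highest peaks of a single replicate replaced the IDR list: without replicate 2 it was 2, smo joining ci, and the cause was not tested. It stayed at 1 under the other windows, the overlap of intervals, the most 5′ TSS and the 1628 highest IDR peaks. The 4 members with an IDR summit within 10 kb and the intronic summit of ptc were the same genes under every alternative run on them. Relaxed promoter summits were found for 4 to 6 members. Other pathway genes with an IDR promoter summit numbered 14, among the 1628 highest IDR peaks, to 21. The rank of a member's promoter peak differed most in ratio from its pooled rank at fu, 13461 in replicate 2 against 4154 pooled. That is the replicate 2 summit within 100 bp of the pooled one, while the highest fu promoter summit of replicate 2 had rank 12396. No paired analysis was possible because there was 1 group and no test. Unknown depth limits every absence: a promoter with no summit is one not among 30000 listed peaks.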

Other observations

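Exact Ci site letters lay within 200 bp of an IDR summit at 6 places in the genome. Besides those upstream of hh and ptc, the nearest TSS was that of CycE (66 bp from the summit, rank 2774), Zasp52 (79 bp, rank 1245), CG12985 (146 bp, rank 2787) and Art4 (152 bp, rank 889). Within 100 bp there were 3, at hh, CycE and Zasp52, and within 500 bp 19. These genes were named after their values were seen.

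Of the relaxed summits in ci introns, 2 lay inside an annotated INE-1 transposable element, with ranks 13338 and 22324. A relaxed summit within 10 kb of cos, in Dscam1, lay inside another INE-1 element, with rank 14459.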
